A study of Homo sapiens with 10 samples.

Results

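The comparison described here sets H1 cells in which KDM1A was knocked down against H1 cells that received a control hairpin. H1, an established human embryonic stem cell line labelled wild type in genotype, was grown in mTeSR1 medium on Matrigel. Every group carried a virus for a short hairpin RNA (shRNA), packaged in 293T cells, and went through puromycin selection. The shKDM1A cells carried a hairpin against KDM1A and the shLUC cells one against luciferase, which is not a human gene. The hairpin sequences, and how many hairpins were used for KDM1A, were not given in the sources used here. The members are the 4 libraries whose titles name shKDM1A (2 libraries) or shLUC (2 libraries), out of 10 libraries in the series. The other 6 are pairs with shRNAs against E2F6, MAFK and SMARCA4. They enter the model's estimate of spread and serve as a reference for what differs from the rest of the series. Total RNA was sequenced to follow gene expression, in a study of proteins that may shape chromosome folding around transposable elements (TEs). The table held 14785 rows, namely 13808 genes, 973 TE subfamilies and 4 transfer RNA rows. The series describes its experiments as done in biological duplicate. The labels do not say whether the duplicates came from separate infections, so p-values measure the spread between these libraries, which may be partly technical.

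KDM1A, also called LSD1, is a histone demethylase that removes methyl groups from lysine 4 of histone H3 when the lysine carries a single methyl group or a pair of them. It works mainly in the CoREST complex with the scaffold RCOR proteins and the deacetylases HDAC1 and HDAC2, and DNA-binding factors such as REST, GFI1 and SNAI1 bring it to the genes it represses. In embryonic stem cells it sits at enhancers and at promoters of developmental genes, and it is needed when these cells differentiate.

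The target itself was examined first, and both knockdown libraries held less of it. KDM1A (ENSG00000004487, chromosome 1, 23019443 to 23083689, plus strand, GRCh38) had 3290 and 1879 normalized tag counts in shKDM1A replicates 1 and 2, and 6344 and 5925 in shLUC. Both were below every other library of the series, where the lowest held 5421. The mean was 42.1% of the control. limma put the log2 change at -1.30 (SE 0.24; adjusted p 0.132, Benjamini-Hochberg over all rows, threshold 0.05), so it did not pass against shLUC. Against the mean of the other 3 knockdowns the difference was -1.23 with a limma adjusted p of 0.0401. The more complete depletion was in replicate 2. KDM1B, the related demethylase of the same histone residue, had 250 and 276 against 326 and 311 (limma adjusted p 0.474).

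The libraries were checked for their cell type. The table held all 23 markers on a list for primed pluripotent cells. SOX2 had 6490 and 6343 in shKDM1A and 6408 and 6928 in shLUC. LIN28A had 41812 in all 4 libraries, a value in the coarse top range of the table, where small differences may not show. Other markers of the list, among them POU5F1, PRDM14 and ZIC2, differed from the control in replicate 1 and are described below. Few markers on the lists for other lineages were in the table, and some of these were high in the controls too. Of 13 endoderm markers 3 were present, with the defining factor FOXA2 at 1 and 0 in shKDM1A and the receptor KIT at 882 and 1174 against 982 and 987 in shLUC. Of 15 mesoderm markers 4 were present. MIXL1 had 24 and 14, EOMES 0 and 20, and the receptor KDR 7440 and 5788 against 5420 and 4612. The keratin KRT18, on the trophoblast and amnion list, had 6647 and 6578 against 6012 in both controls. Summed over the lists, shKDM1A and shLUC held 7552 and 5942 against 5562 and 4759 for mesoderm, 938 and 1174 against 1030 and 1010 for endoderm, and 7007 and 6750 against 6230 and 6308 for trophoblast and amnion. These sums came mostly from KDR for mesoderm, KIT for endoderm and KRT18 for trophoblast and amnion. The 5 ectoderm markers summed to 11020 and 5376 against 6182 and 7428, mostly from NES, and are described with the neural genes. No marker of these lists passed against shLUC. The neural crest list had 2 of 10 members and the trophoblast and amnion list 2 of 14, all within 1 log2 unit of the control in both libraries. In bulk RNA, fewer cells of a type and less RNA per cell cannot be told apart.

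The 2 shKDM1A libraries differed from each other more than any other pair in the series, and this bears on every result below. Each library was placed by its distance from the shLUC mean on the scale log2(value + 1), among the 14154 rows that reached 100 in at least 1 of the 4 libraries. Replicate 1 lay at least 2-fold from the control mean in 1523 rows and replicate 2 in 254. The median size of the distance was 0.379 in replicate 1 and 0.172 in replicate 2. The pair differed from each other at least 2-fold in 1440 rows, against 210 in shSMARCA4, 198 in shE2F6 and 131 in shMAFK. Rows listed at 0 numbered 45 in replicate 1 and 8 in replicate 2, with 9 to 32 in the other 8 libraries. TE rows held 12.8% of the total in replicate 1, 16% in replicate 2, 14.5% in both controls and 14.4% to 15.8% in the other 6 libraries. Replicate 1 had the larger number of distant rows although replicate 2 had the lower KDM1A level.

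Rows were therefore sorted by which library carried the difference. A row was counted as changed in both when each shKDM1A library was at least 2-fold from the shLUC mean in the same direction and outside the range of the 2 controls. It was counted under replicate 1 alone when that library met the same condition and replicate 2 stayed within 0.5 log2 units of the control mean. By this rule 95 rows (0.671% of 14154) were higher in both and 42 (0.297%) lower in both, 137 together. Replicate 1 alone accounted for 1107 rows (7.82%), 502 higher (3.55%) and 605 lower (4.27%). Replicate 2 alone accounted for 38 rows, 18 higher (0.127%) and 20 lower (0.141%), and 12 rows (0.0848%) lay on opposite sides of the control. In shSMARCA4, 501 rows were changed in both replicates, 58 in replicate 1 alone and 130 in replicate 2 alone. The numbers were 146, 42 and 79 for shMAFK. In shE2F6 they were 54, 33 and 101, so there too a single library, replicate 2, held more rows than both together.

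**Figure D1:**
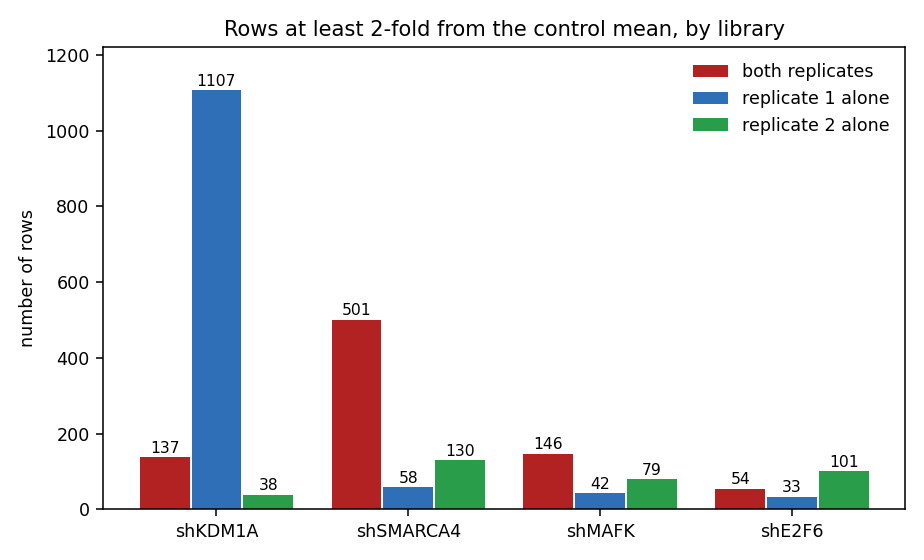
Number of rows (y axis) at least 2-fold from the shLUC mean in both replicates (red), in replicate 1 alone (blue) and in replicate 2 alone (green) for each knockdown (x axis). For shKDM1A the blue bar of 1107 rows stands over a red bar of 137, while in shSMARCA4 and shMAFK the red bar is the tallest, and in shE2F6 the green bar of 101 rows stands over a red bar of 54.

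**Figure D2:**
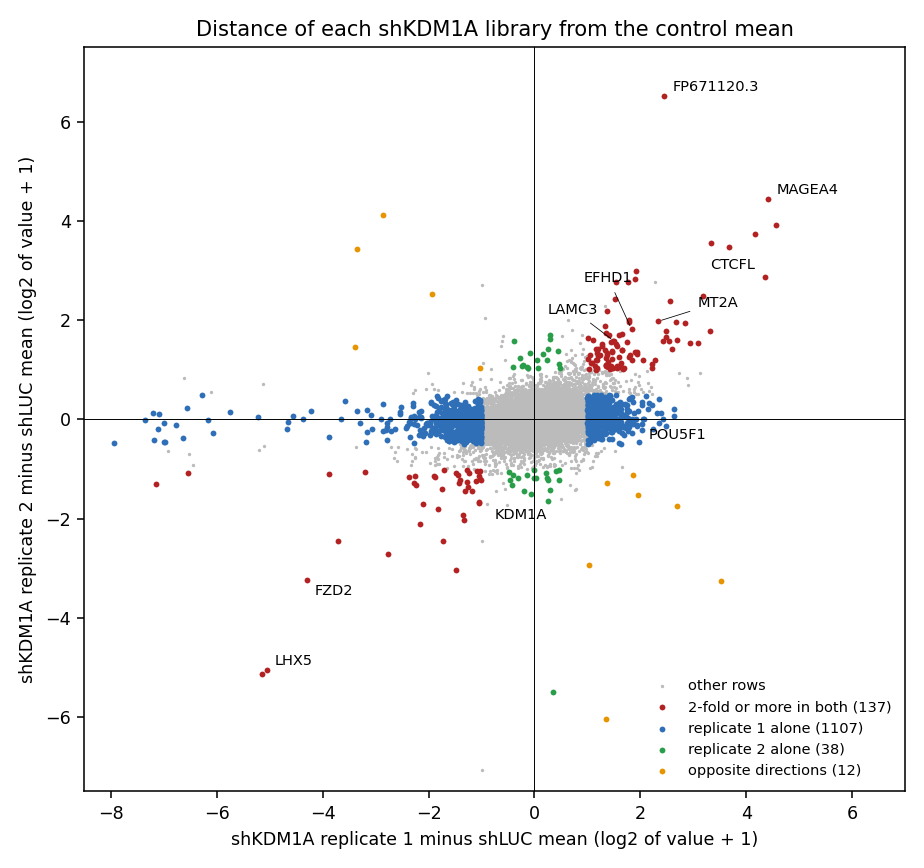
Distance of shKDM1A replicate 1 (x axis) and replicate 2 (y axis) from the shLUC mean, both as log2 of value + 1, for the 14154 rows that reached 100 in the 4 libraries. Rows at least 2-fold away in both are red, those of replicate 1 alone blue, those of replicate 2 alone green and those of opposite direction orange; the blue rows form a flat band along the x axis.

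Values at the class borders show how sharp the rule is. LINC01748, at 1.17 and 1.00 log2 units in replicates 1 and 2, was the last row inside the higher class, and PAWR, at 1.22 and just under 1, fell short of it. On the lower side PHYHIP was inside and SMOC2, at -1.15 and -0.998, was outside. Of the 95 rows higher in both, 88 had an unadjusted limma p under 0.05, and of the 42 lower in both, 41 did, against 11.5% of all rows. The classes and the p-values use the same libraries, so this overlap follows largely from the rule and is not separate support. All 137 were genes, with 0 TE rows, while 944 of the 14154 rows sorted were TE rows. Long intergenic noncoding RNAs made up 10 of the higher and 5 of the lower, and 698 of all 14785 rows. The median shLUC mean was 90.5 for the higher rows, 158 for the lower and 596 for all rows.

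With limma, 4 of 14785 rows (0.0271%) passed the adjusted threshold against shLUC, 3 of them higher (0.0203%) and 1 lower (0.00676%). All 4 were also in the classes changed in both, which use the same libraries. At an unadjusted limma p under 0.05 there were 865 higher and 830 lower rows, 1695 in all (11.5%). The 4 genes were CTCFL, EFHD1, LAMC3 and FZD2.

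CTCFL (ENSG00000124092, chromosome 20, 57495966 to 57525652, minus strand) showed the clearest rise. It encodes BORIS, the germline relative of the insulator protein CTCF, which is normally restricted to the testis and reappears in some tumours. It had 1140 and 995 normalized tag counts in shKDM1A and 96 and 82 in shLUC. The lowest knockdown library was over 10 times the highest control. The mean of 1068 ± 103 (SD, n = 2) was 12-fold that of 89 ± 9.9 in the control, a log2 change of 3.57 (SE 0.19; adjusted p 0.000225 by limma). Its distances were 3.67 in replicate 1 and 3.47 in replicate 2, so the rise did not rest on replicate 1. The other knockdowns held 100 to 284, with the highest values, 252 and 284, in shMAFK. CTCF, the broadly expressed relative, had 2421 and 1855 in shKDM1A and did not pass (limma adjusted p 0.728).

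EFHD1, a calcium-binding protein of mitochondria (ENSG00000115468, chromosome 2, 232606057 to 232682781, plus strand), had 245 and 242 in shKDM1A and 68 in both shLUC libraries. It rose by a log2 value of 1.83 (SE 0.20; adjusted p 0.0313 by limma), and the groups did not overlap. The other knockdowns held 106 to 158, between the groups. A gene model on the opposite strand, AC073254.1, overlaps EFHD1, and the sources used here do not state whether counting used strand.

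LAMC3, the gamma 3 chain of the basement membrane protein laminin (ENSG00000050555, chromosome 9, 131009082 to 131094473, plus strand), had 621 and 654 in shKDM1A and 224 and 213 in shLUC. Its log2 change was 1.54 (SE 0.14; adjusted p 0.00571 by limma). The 6 other knockdown libraries, at 344 to 537, were also above both controls. Against those 6 the shKDM1A libraries were higher by an amount that did not pass (limma adjusted p 0.0953).

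FZD2, a frizzled receptor for Wnt ligands (ENSG00000180340, chromosome 17, 44557459 to 44559570, plus strand), was the row that fell past the threshold. It had 38 and 80 in shKDM1A and 780 and 755 in shLUC, 7.69% of the control. The log2 change was -3.77 (SE 0.29; adjusted p 0.00254 by limma), with distances of -4.30 and -3.25 in replicates 1 and 2. The other knockdown libraries held 224 to 422, below the controls and above both shKDM1A libraries, and the difference from them was -2.50 (limma adjusted p 0.00689). In each of the 4 genes the other knockdowns thus lay on the same side of shLUC as shKDM1A, and these comparisons share the shLUC libraries.

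These 4 calls depended on the estimate of spread taken from all 10 libraries. Those of EFHD1, LAMC3 and FZD2 also did not hold in every fit that left out a control library. In a fit of only the 4 libraries, none of the 4 genes passed (CTCFL limma adjusted p 0.0519, EFHD1 0.686, LAMC3 0.525, FZD2 0.437). The 1 row that passed there was RPL13A (limma adjusted p 0.0298), which had the same value in both libraries of each group. With a separate weight for each group, CTCFL and FZD2 passed and EFHD1 (0.466) and LAMC3 (0.0579) did not. Without shKDM1A replicate 1, EFHD1 had a limma adjusted p of 0.0764. The count of 4 was 1 without shLUC replicate 1, 8 without shLUC replicate 2 and 3235 without shKDM1A replicate 2, where the remaining replicate 1 is assumed to vary like the other groups.

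**Figure D3:**
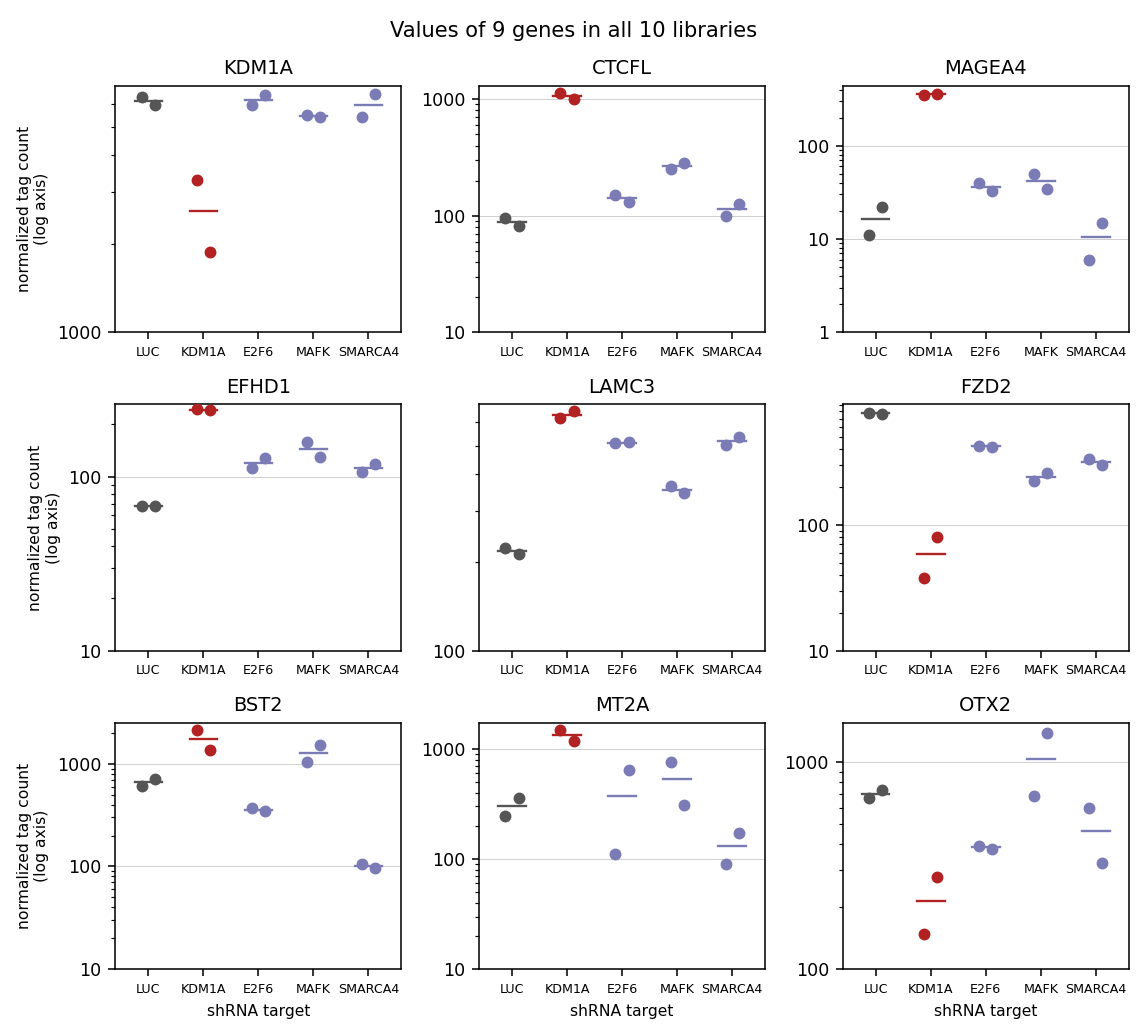
Normalized tag counts (y axis, log scale) of 9 genes in the 10 libraries, by shRNA target (x axis); points are libraries and bars group means. CTCFL and MAGEA4 stand apart in both shKDM1A libraries (red), while LAMC3 and FZD2 are at their lowest and highest in the shLUC control (grey), with the other knockdowns in between.

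Promoter sequences are shown for the genes with the clearest differences. RefSeq windows (GRCh38.p14) of 250 bases before to 50 after the start were found for 3 of 5 genes looked for. The windows of CTCFL and EFHD1 lie inside the longer gene models given above. Capitals mark CpG dinucleotides. CTCFL has 19 at chr20:57524648-57524947 (minus strand), EFHD1 35 at chr2:232633354-232633653 (plus strand) and MAGEA4, described next, 10 at chrX:151912224-151912523 (plus strand). The median of 27305 such windows was 14, and 43% of them hold at least as many as CTCFL, 14% as many as EFHD1 and 56% as many as MAGEA4. The 3 windows thus lie on both sides of the median CpG content.
CTCFL: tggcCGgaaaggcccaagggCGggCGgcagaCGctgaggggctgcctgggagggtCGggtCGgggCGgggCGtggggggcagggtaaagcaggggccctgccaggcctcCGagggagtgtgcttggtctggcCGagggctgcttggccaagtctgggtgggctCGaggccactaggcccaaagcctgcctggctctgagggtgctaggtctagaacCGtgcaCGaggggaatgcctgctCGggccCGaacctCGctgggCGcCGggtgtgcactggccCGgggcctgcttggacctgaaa
EFHD1: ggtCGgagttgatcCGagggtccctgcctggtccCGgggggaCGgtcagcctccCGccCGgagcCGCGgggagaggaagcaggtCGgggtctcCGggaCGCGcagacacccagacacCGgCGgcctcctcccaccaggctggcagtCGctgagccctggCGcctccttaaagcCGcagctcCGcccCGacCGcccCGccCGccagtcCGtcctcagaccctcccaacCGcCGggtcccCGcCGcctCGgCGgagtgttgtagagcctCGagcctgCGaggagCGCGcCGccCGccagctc
MAGEA4: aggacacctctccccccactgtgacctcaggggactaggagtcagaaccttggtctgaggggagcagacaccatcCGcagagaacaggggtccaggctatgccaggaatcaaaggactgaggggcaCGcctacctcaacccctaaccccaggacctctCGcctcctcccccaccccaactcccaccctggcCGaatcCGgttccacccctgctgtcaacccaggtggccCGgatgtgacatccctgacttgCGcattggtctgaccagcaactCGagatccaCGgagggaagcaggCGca

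Among the genes higher in both libraries, 12 were named for the widest gap between the nearest knockdown and control libraries. CTCFL and EFHD1 are among them. MAGEA4, a cancer-testis antigen of the X chromosome, had 354 and 358 in shKDM1A and 11 and 22 in shLUC, with 6 to 50 in the 6 other libraries. The replicates lay at 4.42 and 4.43 log2 units from the control mean. Its limma adjusted p was 0.055 against shLUC and 0.0198 against the other knockdowns. Reads of MAGEA4 may be shared with near-identical family members and with MAGEA4-AS1 on the other strand. The noncoding LINC02294 had 116 and 85 against 6 and 5, and MADCAM1, an adhesion molecule of blood vessels, 166 and 146 against 23 and 32. Neither passed (limma adjusted p 0.255 and 0.183).

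Others of the 12 were often uneven between replicates. ATP8B3, a phospholipid flippase, had 188 and 362 in shKDM1A and 52 and 48 in shLUC. MELTF, an iron-binding protein of the cell surface, had 311 and 166 against 34 and 53. EMILIN1, a glycoprotein of elastic fibres, had 175 and 99 against 29 and 32, and COL16A1, a collagen, had 818 and 384 against 119 and 134. EXOC3L2 had 90 and 104 against 29 and 22. FP671120.3 had 28 and 486 against 3 and 6, so its size came from replicate 2, and its position on chromosome 21 (8210384 to 8211306) is in a region of repeated sequence where reads may be shared between copies. The 12th gene, MT2A, is described with the metallothioneins. None of these 6 passed against shLUC (limma adjusted p 0.122 to 0.407).

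The 12 genes lower in both with the largest separation include transcription factors of the forebrain. LHX5, a LIM homeobox factor, had 2 in both shKDM1A libraries and 51 and 191 in shLUC, but it was also at 0 to 113 in the other knockdowns, with 0 to 2 in 3 of those 6 libraries. FEZF1, a zinc finger factor of forebrain progenitors, had 45 and 47 against 274 and 356. OTX2, a homeobox factor of the anterior brain that also marks primed pluripotent cells, had 148 and 280 against 674 and 734. SOX21, outside the 12, had 168 and 102 against 454 and 392 and was lower in both as well. None of these passed (limma adjusted p 0.131 for FEZF1, 0.207 for OTX2, 0.172 for SOX21 and 0.407 for LHX5).

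The rest of the lower 12 had mixed functions. FOXP4, a forkhead factor, had 60 and 62 in shKDM1A and 264 and 282 in shLUC (limma adjusted p 0.068). PHC2, a subunit of Polycomb repressive complex 1, had 62 and 78 against 209 in both controls. GREB1L had 17 and 42 against 182 and 300, and MYORG had 43 in both against 201 and 118. The noncoding AC025176.1 had 2 in both against 91 and 121, and LINC02334 had 24 and 32 against 138 and 82. PHYHIPL had 0 and 56 against 134 and 146, so it is listed at 0 in replicate 1. RPL13A, a ribosomal protein, had 61939 in both and 148866 in both controls. These are neighbouring values of the highest range of the table, where the step between them is 1.27 on the log2 scale, so a small change of rank reads as a change of this size. It was the 1 row past the threshold in the fit of only the 4 libraries.

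No partner of KDM1A passed. Of 15 CoREST complex genes besides KDM1A, each present among the rows, 0 passed the threshold against shLUC, and 0 had an unadjusted limma p under 0.05. In 3 (20%) both libraries lay above both controls and in 3 (20%) below. Over all rows 17.9% lay above and 20.9% below. The scaffold RCOR2 had 3046 and 3008 against 2530 and 2702, and the deacetylase HDAC2 had 7917 and 7440 against 8496 and 9502. The median distance of the 15 was -0.09 in replicate 1 and 0.05 in replicate 2. Of the 14 other enzymes that add or remove methyl groups at the same histone residue, 0 passed, and 0 had an unadjusted limma p under 0.05. Over all rows 0.0271% passed and 11.5% had such an unadjusted limma p, so 0 in lists this short says little about these genes.

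Genes of the integrated stress response lay above the controls more often than other rows. This is the programme that the factor ATF4 drives when translation is restrained by amino acid shortage or other stress. Of 24 listed genes 22 were in the table. Both shKDM1A libraries lay above both controls for 17 of them (77.3%, background 17.9%) and below for 0. Before adjustment 17 had a limma p under 0.05 (background 11.5%), each of them higher. In the class higher in both were 9 (background 0.671%), and 0 passed the adjusted threshold (background 0.0271%). These counts use the same shKDM1A and shLUC libraries, so they are not separate support. TRIB3, a pseudokinase induced by ATF4, had 443 and 480 in shKDM1A and 96 and 224 in shLUC. The mitochondrial enzyme PCK2 had 4852 and 4065 against 916 and 2606. ATF5, a factor related to ATF4, had 268 and 501 against 74 and 116, and SLC7A11, the cystine transporter, had 2156 and 3128 against 418 and 1728. ATF4 itself had 7040 and 6077 against 4526 and 6012.

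The size of this difference depended on the control library. Replicate 2 of shLUC lay above replicate 1 in 22 of the 22 genes, by a median of 1.02 log2 units. Measured from shLUC replicate 1, the median distance of the list was 1.68 and 1.62 in shKDM1A replicates 1 and 2. Measured from shLUC replicate 2, it was 0.42 and 0.48. Summed over the list, the normalized tag counts were 106158 and 99267 in shKDM1A and 42299 and 73102 in shLUC. The shMAFK pair held 124565 and 99385, the shE2F6 pair 54634 and 50402, and the shSMARCA4 pair 34341 and 32529. High values of these genes were thus found in shMAFK as well as in shKDM1A, and 1 of the 22, DDIT4, an inhibitor of mTOR signalling, passed against the other knockdowns (8630 and 10074, difference 1.93, limma adjusted p 0.0459). Without shLUC replicate 2, the log2 changes of DDIT4, PCK2, STC2 and SLC7A11 against shLUC were 2.1, 2.28, 2.18 and 2.63. Without shLUC replicate 1 they were 0.5, 0.77, 0.5 and 0.59.

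Metallothioneins, small proteins that bind zinc and copper and are induced by metals through the factor MTF1, were the other group of this kind, chosen after their values were seen. All 6 in the table had both shKDM1A libraries above both controls (100%, background 17.9%), and 4 were in the class higher in both (background 0.671%). MT2A had 1501 and 1173 against 245 and 362. MT1H had 2586 and 1596 against 373 and 572, MT1G 3755 and 3901 against 878 and 1600, and MT1E 1012 and 891 against 235 and 382. The median distance of the list was 1.71 in replicate 1 and 1.64 in replicate 2, close to each other, and shLUC replicate 2 lay above replicate 1 in all 6 by a median of 0.66. The sum was 13632 and 12867 in shKDM1A, 3938 and 5920 in shLUC and 1726 to 8799 in the other 6 libraries. The pair of shE2F6 libraries, at 3028 and 5934, shows how far this group can move between replicates. None passed against shLUC (lowest limma adjusted p 0.289), and MT1X, at 4390 and 4958, passed against the other knockdowns (1.48, limma adjusted p 0.0343). The genes are close copies of each other on chromosome 16, so reads may be shared among them. Of 16 zinc transporter genes, 2 lay above (12.5%, background 17.9%) and 5 below both controls (31.2%, background 20.9%).

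The MT2A promoter is shown for its metal response elements. Capitals mark the core motif TGCNCNC on either strand, where overlapping matches are counted separately. The window chr16:56608334-56608633 (plus strand, RefSeq, GRCh38.p14) holds 8 matches. The motif occurs in 55.2% of all 27305 windows of the same length, and 0.0879% hold 8 or more. MT1H also holds 8 and MT1X 4, a number that 2.78% of windows reach; 3 of the 6 genes were matched to a window.
MT2A: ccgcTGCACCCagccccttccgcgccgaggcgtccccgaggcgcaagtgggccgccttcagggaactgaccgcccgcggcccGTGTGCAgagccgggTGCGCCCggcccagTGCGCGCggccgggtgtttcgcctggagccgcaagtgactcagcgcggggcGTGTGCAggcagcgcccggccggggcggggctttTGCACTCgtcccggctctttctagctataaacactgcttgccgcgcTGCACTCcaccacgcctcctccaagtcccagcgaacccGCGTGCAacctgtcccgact

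**Figure D4:**
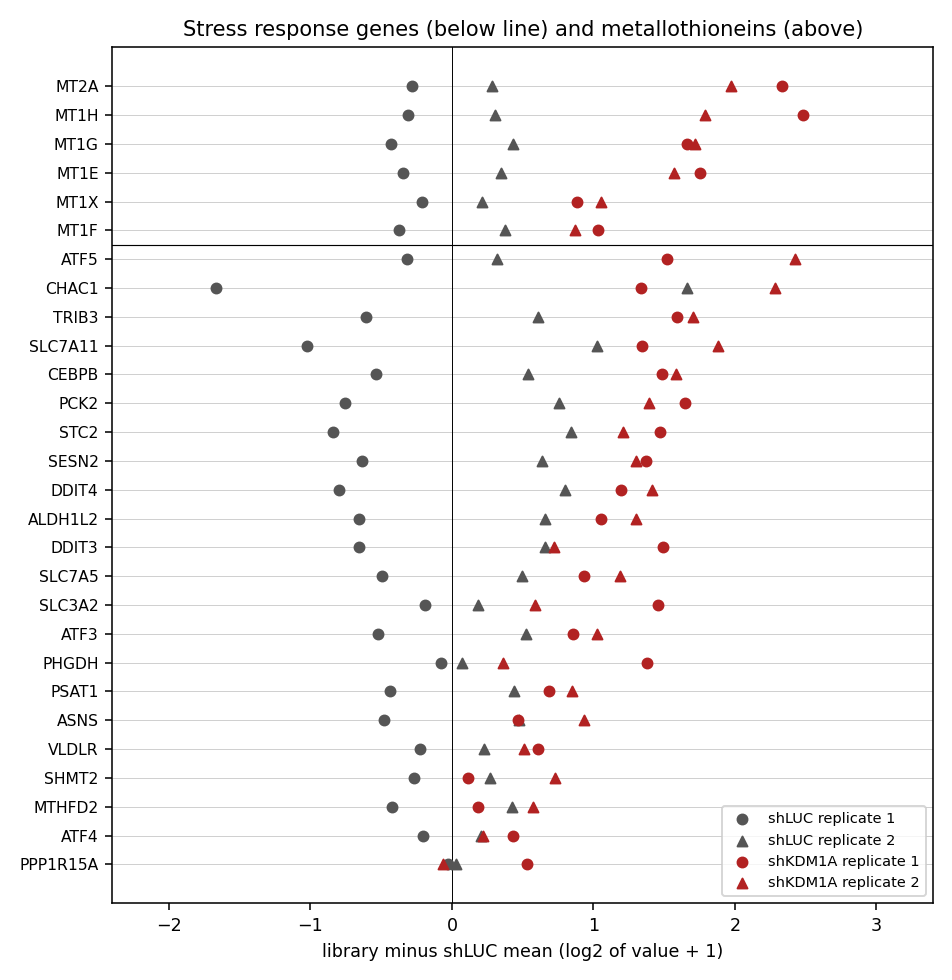
Distance of each library from the shLUC mean (x axis, log2 of value + 1) for 22 stress response genes and, above the line, 6 metallothioneins; grey marks are the controls and red marks shKDM1A, circles replicate 1 and triangles replicate 2. The grey triangles lie to the right of the grey circles for every gene shown, and for the metallothioneins both red marks lie to the right of both grey ones.

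Laminins, the trimers that build basement membranes, included 2 of the rows higher in both. On the laminin list 10 of 12 were in the table, 5 had both libraries above both controls (50%, background 17.9%) and 0 below, and LAMC3 and LAMA2 were changed in both. LAMA2, the alpha 2 chain, had 649 and 597 against 248 and 260 (log2 change 1.29, limma adjusted p 0.055). The main chains of embryonic basement membrane were nearer the control, with LAMA1 at 4613 and 3740 against 3026 and 3046 and LAMC1 at 5791 and 4197 against 4310 and 4197. Summed over the list, shKDM1A held 30934 and 29401 and shLUC 23550 and 27850. The sum was higher still in shMAFK, at 33757 and 39402, with 22981 to 27994 in shE2F6 and shSMARCA4. Outside this list, elastin (ELN), with 266 and 178 against 64 and 74, was named after its values were seen.

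On the Wnt receptor list, 15 of 16 were in the table, and FZD2 was its only member changed in both. The other frizzled genes with high values, FZD7 (6249 and 5367 against 5498 and 5536) and FZD3 (2130 and 2258 against 1983 and 2122), stayed near the control. ROR2, a receptor for noncanonical Wnt ligands, had 426 and 373 against 210 and 204 (log2 change 0.94, limma adjusted p 0.126). Of 13 Wnt target and feedback genes present 0 passed. In this list 3 lay above both controls (23.1%, background 17.9%) and 2 below (15.4%, background 20.9%). AXIN2, a feedback inhibitor and common readout of beta-catenin activity, had 778 and 734 against 389 and 444 (log2 change 0.86, limma adjusted p 0.245). Its libraries did not overlap those of the control and the replicates were close.

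Markers of early neural ectoderm lay below the control more often than above. Of 14 listed, 5 were in the table; 4 lay below both controls (80%, background 20.9%) and 0 above, and LHX5, SIX3 and OTX2 were lower in both. SIX3, a forebrain factor, had 34 and 20 against 62 and 211, and ZIC1 had 79 and 48 against 95 and 149. NES went the other way in replicate 1, with 10757 and 5026 against 5300 and 6143. The controls differed here too, since shLUC replicate 2 was above replicate 1 in all 5 genes by a median of 0.64, and LHX5 and SIX3 were also low in both shE2F6 libraries (0 and 1, 26 and 27). None of the 5 passed (lowest limma adjusted p 0.207).

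Neuronal genes known to be repressed by REST, a factor that recruits CoREST, lay below the controls more often than above. Of 20 in the table, 1 lay above both controls (5%, background 17.9%) and 7 below (35%, background 20.9%), 0 passed and 0 were changed in both. Summed over the list, shKDM1A held 13584 and 15059 and shLUC 19059 and 16011. The sum was as low in shMAFK, at 14324 and 12037, with 19160 and 19818 in shE2F6 and 15085 and 16979 in shSMARCA4. TUBB3, a neuronal tubulin, had 1215 and 2266 against 5536 and 3264 (log2 change -1.36, limma adjusted p 0.231). Most of the fall in the sum was in this gene. The median distance of the list was -0.17 in replicate 1 and -0.16 in replicate 2. CHGA, which is stored in secretory granules, had 562 and 176 against 346 in both controls, and VGF, a secreted neuropeptide precursor, had 656 and 224 against 280 and 196. Both were above the controls in replicate 1, and in replicate 2 CHGA was below them and VGF between them.

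Among germline genes CTCFL stood alone in passing the threshold. Of 29 listed, 9 were in the table, and CTCFL was the only member changed in both. Of the 9, 4 lay above both controls (44.4%, background 17.9%) and 1 below (11.1%, background 20.9%). STAG3, a meiotic cohesin subunit, had 292 and 374 against 214 in both controls (log2 change 0.62, limma adjusted p 0.407), and DAZL, an RNA-binding protein of germ cells, had 85 and 48 against 78 and 76. Of 7 MAGE family genes in the table, 1 (MAGEA4) lay above both controls and 1 below, 14.3% each, against 17.9% and 20.9% of all rows. The gene below, MAGEH1, had 46 and 74 against 158 and 135.

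Pluripotency markers were near the control in replicate 2 and scattered in replicate 1. Of the 23, 1 lay above both controls (4.35%, background 17.9%) and 2 below (8.7%, background 20.9%), and 0 passed. The median distance was -0.19 in replicate 1 and 0.00 in replicate 2. POU5F1 was at 148866 in replicate 1 and at 35710 in replicate 2 and both controls, in the coarse top range of the table. PRDM14, a repressor of differentiation genes, had 291 and 616 against 930 and 706, and ZIC2 had 3756 and 7211 against 8497 and 9298. DPPA2, a chromatin protein of pluripotent cells, was the member with the smallest p, at 651 and 532 against 316 and 252 (log2 change 1.06, limma adjusted p 0.126). It passed against the other knockdowns (1.01, limma adjusted p 0.0343), whose 6 libraries held 234 to 354. DPPA5, a small RNA-binding protein of naive cells, had 160 and 113 against 72 and 36 and was higher in both. Of the 6 naive markers in the table, 3 lay above both controls (50%, background 17.9%) and 2 below (33.3%, background 20.9%).

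In other programmes no gene passed against shLUC. Of 16 interferon response genes in the table, BST2, an antiviral membrane protein that tethers virions, was changed in both (2147 and 1349 against 614 and 710). IFITM1, IFITM2 and IFITM3 were low in replicate 1 and near the control in replicate 2, for example 894 and 3348 against 2712 and 2967 for IFITM2. On the p53 response list 3 of 22 lay above both controls (13.6%, background 17.9%) and 9 below (40.9%, background 20.9%), and 0 passed. Of 24 histone genes 7 lay above (29.2%, background 17.9%) and 0 below (background 20.9%). HIST1H2AC (582 and 497 against 274 and 180) and HIST1H2BJ (158 and 110 against 60 and 34) were higher in both. Of 79 ribosomal proteins 26 lay below both controls (32.9%, background 20.9%), and of 78 respiratory chain subunits 31 (39.7%), with median distances of -0.27 and -0.06 and of -0.19 and -0.12 in replicates 1 and 2. Lists for cell division, DNA replication, heat shock, cohesin and epithelial state held 0 genes past the threshold, which 0.0271% of all rows passed.

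TE subfamilies lay above both controls more often than genes did, by small amounts. Of 973 subfamilies, 0 passed the threshold. Before adjustment 85 had a limma p under 0.05 (8.74%, against 11.5% of all rows), 82 of them higher and 3 lower. Both shKDM1A libraries were above both controls for 288 (29.6%) and below for 45 (4.62%), against 17.1% and 22.0% of genes. No TE row was changed in both by 2-fold. The median distance of all TE rows was -0.05 in replicate 1 and 0.17 in replicate 2. The libraries thus disagreed on the direction for TEs as a whole, and values of subfamilies share their library and its normalization.

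The L1 elements of primates differed from older L1 elements in this respect. L1 is the family of retrotransposons with members, L1HS, that still move in human cells, and the L1PA subfamilies are its closest relatives. Of the 18 L1HS and L1PA rows, 16 had both shKDM1A libraries above both controls (88.9%, against 29.6% of all TE rows) and 0 below. At an unadjusted limma p under 0.05 there were 10 of them, against 8.74% of all TE rows. The median distance was 0.25 in replicate 1 and 0.43 in replicate 2. For the 92 rows of the older L1M and HAL1 group it was -0.30 and 0.15, with 19.6% above both. Summed over the 18 L1HS and L1PA rows, the values were 137965 and 129250 in shKDM1A and 98548 and 96583 in shLUC. Other knockdowns were often above the controls too, with 100059 and 103167 in shE2F6, 116834 and 107786 in shMAFK and 94139 and 119118 in shSMARCA4. L1HS had 2952 and 2830 normalized tag counts in shKDM1A, 1432 and 1586 in shLUC and 1087 to 2273 in the 6 other libraries. Its log2 change was 0.94 (SE 0.23; adjusted p 0.245 by limma), with distances of 0.97 and 0.91, and no other library of the series reached either shKDM1A value. L1PA2 had 10950 and 10757 against 7040 and 8086. L1PA3 had 35716 and 18610 against 15764 and 13578, and in it the excess was larger in replicate 1. The split of L1 rows by name was added after seeing the data.

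Other TE rows with the widest gap to the control were also modest. L1P4e had 146 and 97 against 59 in both controls, LTR69 142 and 119 against 64 and 74, L1PBa 1368 and 1378 against 906 and 788, and L1PA8A 1396 and 1723 against 936 and 859. On the lower side were UCON97 (64 and 27 against 100 and 84), L1P3b (238 and 220 against 289 and 322), LTR77 (112 and 104 against 187 and 134), MER51D (83 and 82 against 95 and 112) and UCON33 (226 and 223 against 259 and 258). None passed (limma adjusted p 0.258 or higher).

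By family, the ERVL rows lay above the control to a like extent in both libraries. Of 115 ERVL rows 58 lay above both controls (50.4%), with median distances of 0.24 and 0.21. Of 76 ERVL-MaLR rows 35 did (46.1%), with uneven medians of 0.09 and 0.22. For ERV1 it was 98 of 274 (35.8%). The ERVL sum was 82240 and 82826 in shKDM1A, 69406 and 68863 in shLUC and 67535 to 84921 in the other knockdowns. The ERVL-MaLR sum was 149670 and 178542 in shKDM1A, 148209 and 149602 in shLUC and 141360 to 187784 in the other knockdowns. Both sums were highest in shSMARCA4 replicate 2. Alu elements, hAT-Charlie and TcMar-Tigger DNA transposons had opposite medians in the libraries, with -0.39 and 0.15 for Alu, -0.37 and 0.11 for hAT-Charlie and -0.35 and 0.10 for TcMar-Tigger. Of the 48 Alu rows, 0 lay above both controls. HERVH-int, a retroviral transcript typical of human pluripotent cells, was at the top value of 148866 in all 10 libraries, so no difference in it was detectable. HERVK-int had 1076 in replicate 1, and 3474 in replicate 2 against 3780 in both controls.

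**Figure D5:**
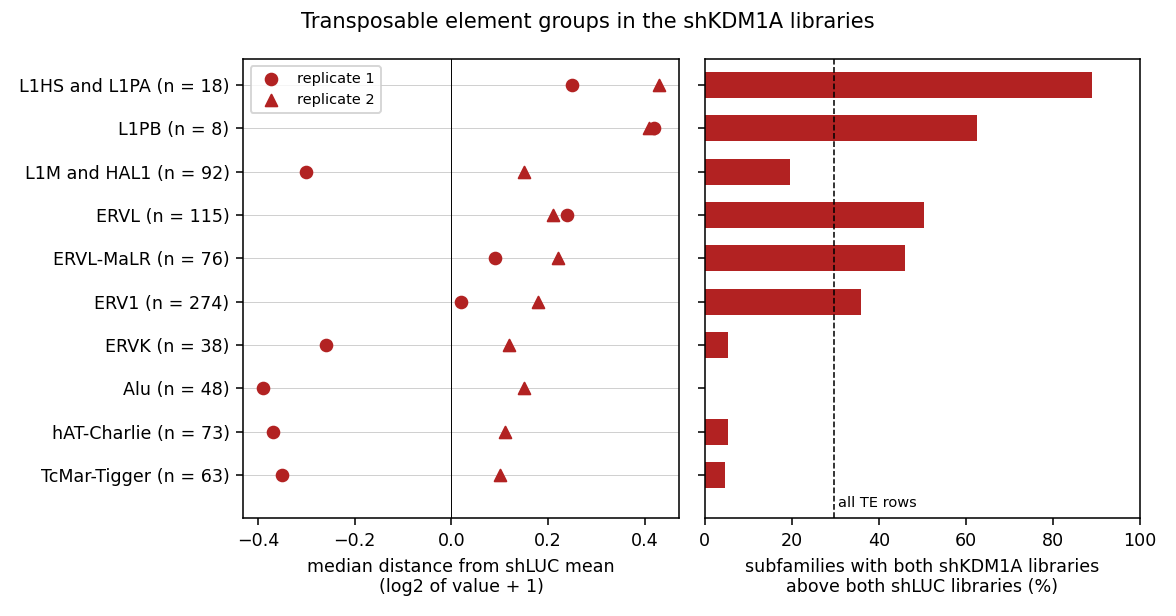
Left, median distance from the shLUC mean (x axis, log2 of value + 1) of the subfamilies in 10 TE groups in shKDM1A replicate 1 (circles) and replicate 2 (triangles), with the number of subfamilies in brackets. Right, share of subfamilies (%) with both shKDM1A libraries above both controls, with a dashed line at the 29.6% of all TE rows; L1HS and L1PA reach 88.9% and Alu 0%.

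The 1107 rows of replicate 1 alone had a median distance of 1.22 in replicate 1 and 0.05 in replicate 2 for the 502 higher rows, and of -1.31 and -0.08 for the 605 lower rows. Of the lower rows 15 were listed at 0 in replicate 1. TE rows made up 22 of the higher and 26 of the lower, and 944 of the 14154 rows sorted. The genes with the largest distance were CTU1, a tRNA-modifying enzyme, with 796 in replicate 1 and 146 in replicate 2 against 170 and 94 in the controls, and UTS2B, a urotensin peptide, with 1092 and 182 against 164 and 186. The noncoding AC107871.2 had 956 and 154 against 194 and 148, ST20 had 1030 and 214 against 233 and 164, PCSK1N, an inhibitor of prohormone processing, 359 and 66 against 67 and 65, and PKDREJ 244 and 62 against 42 and 52. In each of these replicate 2 lay close to the controls.

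On the lower side of replicate 1 alone, the 6 genes farthest from the control were all listed at 0 there. ABCA5, a lipid transporter, had 0 and 176 against 246 and 245. XKR9, LIPI, SPHAR, CCDC173 and the cadherin CDH9 had 0 in replicate 1 and 108 to 162 in replicate 2, against 116 to 178 in the controls. CDH9 was also listed at 0 in shE2F6 replicate 1. A value listed at 0 in a single library of a table without counts can be a failed estimate, so these genes are given as listed and with no fold.

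Replicate 2 alone added few rows. MUC16, a membrane mucin, had 55 in replicate 1 and 147 in replicate 2 against 46 and 43, FOXL2NB 85 and 213 against 44 and 108, and AC097634.1 26 and 104 against 16 and 72. Lower in replicate 2 were RLN1, a relaxin, with 110 and 40 against 98 and 134, AL139286.2 with 140 and 37 against 114 and 121, and GMCL2 with 114 and 1 against 90 and 88. The 3 genes with the largest distances of opposite sign, RANBP3L, CSMD3 and ASPN, were each listed at 0 in 1 shKDM1A and 1 shLUC library. The controls themselves ran from 0 to 102, 92 and 52 in these genes.

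The comparison with the other 3 knockdowns does not use the shLUC mean and tests where shKDM1A differed from the other hairpins. It gave 96 rows past the limma threshold (0.649%), 70 higher (0.473%) and 26 lower (0.176%), and 0 were TE rows. The contrast shares the shKDM1A libraries with the comparison against shLUC, and 18 of the 96 were in the classes changed in both. In 81 both shKDM1A libraries lay beyond all 6 other knockdown libraries and in 15 they did not. The contrast picked rows by their difference from these 6 libraries, so the 81 are not separate support. In 73 both lay beyond all 8 other libraries of the series, against 1018 of all 14785 rows. A low or high value in a single other knockdown can also bring a row past the threshold, since the reference is a mean. SMARCA4 is an example, at 9296 and 7917 in shKDM1A, 8086 and 8374 in shLUC and 1100 and 985 where it was itself the target (1.08, limma adjusted p 0.0117). CTCFL (2.71, limma adjusted p 0.000428), EFHD1 (0.96, 0.0459) and FZD2 passed in both contrasts. BST2 was higher than the other knockdowns by 2.25 (limma adjusted p 0.00689), although shMAFK held 1050 and 1526, inside the range of shKDM1A in 1 library. LGALS1, a galectin, had 306 and 290 against 106 and 116 in shLUC and 59 to 108 in the others (1.92, limma adjusted p 0.00689). LDHD, a lactate dehydrogenase for the D form, had 568 and 613 against 188 and 228 (2.06, limma adjusted p 0.00809), and complement component C3 had 473 and 578 against 166 and 188 (1.62, limma adjusted p 0.0117).

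The count of 96 rested on how the shKDM1A spread was treated. With a separate weight for each group it was 3, and without shKDM1A replicate 1 it was 15. Without shKDM1A replicate 2 it was 4448, since the lone replicate 1 is then assumed to vary like the other groups.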

How the data were processed

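RNA from 10 libraries was compared through 1 deposited table of values per gene and TE subfamily. The authors' values are whole-number scores, normalized tag counts rather than raw counts, and share a median of 594 and nearly equal totals (22836548 to 22855295). The read depth is therefore unknown and no interval that needs it is given. The submitters' processing notes name STAR, STARsolo and hg38; versions, annotation, multi-mapping and strand rules are not given in the sources used here. Gene positions and overlaps are from GENCODE release 29.

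Values were taken as log2(value + 1), so changes of low rows are understated. A minimum mean of 10 was set for testing and removed 0 rows. limma 3.58.1 in R 4.3.3 (eBayes with trend, two-sided, Benjamini-Hochberg) fitted all 10 libraries together with 5 residual degrees of freedom. The 2-fold classes and list counts carry no test. Named genes were the target, its paralog and CoREST partners, rows past the threshold against shLUC, the 12 higher and 12 lower genes changed in both with the widest gap, the 6 of replicate 1 alone and 3 of replicate 2 alone farthest from the control in each direction, the 3 with the largest opposite distances, the 5 TE rows of each direction with the widest gap, list members changed in both and defining markers; others are examples from the lists. Members and lists were chosen with earlier results of these data known. Alternatives covered pseudocount, filters, scaling, variance model, replicate block and leaving out libraries. Tables and plots used Python 3.11.15, pandas 2.3.3 and matplotlib 3.10.9.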

Additional observations from a re-analysis of the deposited data

Results flagged for a closer look

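The following genes differed between shKDM1A and the mean of the other 3 knockdowns in a test of that difference (limma, Benjamini-Hochberg adjusted over all rows) and were either the target or at least 2-fold from shLUC in both libraries. Values are log2 differences from the other knockdowns. Lower were FZD2 (-2.50, adjusted p 0.00689), LHX4, a LIM homeobox factor (-1.97, 0.0343), CNIH2, an auxiliary subunit of glutamate receptors (-1.88, 0.0447; 38 and 65 in shKDM1A, 65 and 67 in shMAFK and 184 to 565 in the other 4 knockdown libraries), ACADSB, an enzyme of isoleucine breakdown (-1.46, 0.0384), and KDM1A (-1.23, 0.0401).

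Higher in the same limma contrast were MAGEA4 (3.80, adjusted p 0.0198), CTCFL (2.71, 0.000428), BST2 (2.25, 0.00689), LDHD (2.06, 0.00809), APC2 (2.05, 0.0401), DDIT4 (1.93, 0.0459), LGALS1 (1.92, 0.00689), ATP8B3 (1.88, 0.0426), NPTX2, a neuronal pentraxin (1.66, 0.0401), C3 (1.62, 0.0117), MVP, the major vault protein (1.40, 0.0447), RASL12 (1.22, 0.0447), EFHD1 (0.96, 0.0459) and CILP2 (0.96, 0.0447). APC2 had 369 and 252 in shKDM1A against 63 and 153 in shLUC and 30 to 42 in shE2F6 and shSMARCA4, while shMAFK, at 348 and 320, lay inside the shKDM1A range. DDIT4 had 8630 and 10074 in shKDM1A and 8497 and 7578 in shMAFK, with 990 to 1793 in shE2F6 and shSMARCA4. LHX4 had 48 and 112 in shKDM1A against 220 and 286 in shLUC. No group has the 4 libraries that a check for single outlying samples needs.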

How the results depend on the processing

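Counts past the limma threshold against shLUC were 4 as reported, 3 to 6 under another pseudocount, filter or scaling, 1 in a fit of the 4 libraries alone, 2 with group weights and 9 without the trend. Leaving out 1 library gave 1 to 3235, the highest without shKDM1A replicate 2, 8 without shLUC replicate 2 and 1 without shLUC replicate 1. Against the other knockdowns, 96 became 3 with group weights, and 15 to 4448 without a shKDM1A library.

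With a minimum of 500 for the highest library, the classes held 34 higher in both, 8 lower in both, 710 in replicate 1 alone and 6 in replicate 2 alone. With a distance of 1.5-fold they held 294, 183, 3601 and 328. Leaving out a control gave 43 to 61 for replicate 2 alone. Membership also moved: without shLUC replicate 1 or 2, higher in both held 86 or 129 rows, of which 64 or 78 were among the 95 reported, and lower in both held 38 or 49, of which 31 or 27 were among the 42. The classes need both shKDM1A libraries, so neither was left out.

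The replicate number does not pair the libraries by the rule used, since correlations of replicate deviations ran from -0.05 to 0.337 and 2 of the 10 pairs of groups exceeded 0.1. With the replicate block, 3 rows passed against shLUC (EFHD1 had a limma adjusted p of 0.0771) and 62 against the other knockdowns. Of the log2 changes of 66 named rows under the alternatives, 763 kept direction and side of the threshold, 51 newly passed, 13 no longer passed and 0 reversed; the cause was not tested.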

Other observations

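A further set of genes separated shKDM1A from the other knockdowns without a 2-fold distance from shLUC in both libraries. They were picked from the 96 rows of that contrast after their values were seen, and values are given with no explanation. IGFBP2, a binding protein for insulin-like growth factors, had 61943 and 41812 normalized tag counts in shKDM1A, 35716 in both shLUC libraries and 16619 to 19696 in the other knockdowns (log2 difference 1.49, limma adjusted p 0.00689). Both shLUC libraries therefore also lay above all 6 other knockdown libraries. The values are in the coarse top range of the table. PKM, the pyruvate kinase of glycolysis, had 41804 and 30768 against 21308 in both controls and 19692 to 25021 in the other knockdowns (0.75, limma adjusted p 0.0419).

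TXNIP and ARRDC4, related arrestin-domain genes known for their response to glucose, were both among the 96. TXNIP had 3528 and 4646 in shKDM1A, 2296 and 3474 in shLUC, and 794 to 3262 in the other knockdowns (1.45, limma adjusted p 0.0241). ARRDC4 had 2190 and 1259 in shKDM1A, 626 and 1038 in shLUC, and 304 to 1189 in the others (1.52, limma adjusted p 0.0401). In both genes shLUC replicate 2 was above replicate 1 and shKDM1A lay within 0.28 log2 units of the nearer control in its nearer library.

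Lower than the other knockdowns were RARA, a retinoic acid receptor, and ASXL1, a chromatin protein of the Polycomb group pathways. RARA had 36 and 70 in shKDM1A, 138 and 126 in shLUC and 108 to 371 in the other knockdowns, the highest in shSMARCA4 (-1.81, limma adjusted p 0.0343). ASXL1 had 376 and 425 in shKDM1A, 794 and 666 in shLUC and 528 to 792 in the others (-0.72, limma adjusted p 0.0473). Neither passed against shLUC (limma adjusted p 0.203 and 0.132).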
